A study of Rattus norvegicus with 30 samples.

Results

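The Q74 lines were compared with the Q23 lines after 5 days of doxycycline, and each difference was split into the part that was already there at day 0 and the part gained since. PC12 is a rat phaeochromocytoma line that makes and stores catecholamines and is widely used as a model of neuron-like cells. The Q74 lines (lines 4 and 6) and the Q23 lines (lines 1 and 5) are PC12 cells that carry a doxycycline-inducible exon 1 fragment of huntingtin fused to green fluorescent protein, with 74 glutamines in Q74 and 23 in Q23. Each line is an independent, stably transfected cell line, so a construct is represented by 2 lines. For the 5 days all groups were given 1 μg/ml doxycycline, including PC12 cells without a construct, which served as the reference. The comparison rests on 8 of the 30 Illumina RatRef-12 arrays, 2 RNA isolations of each of the 4 lines at day 5. The same medium, with G418 and hygromycin, was used throughout. The day 5 arrays are set against the 8 arrays of the same lines at day 0 and the 2 arrays of PC12 cells at day 5.

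Huntingtin is a large cytoplasmic protein, and the glutamine stretch that is lengthened in Huntington's disease lies in its first exon. Fragments with a long stretch misfold and gather into aggregates in the cytoplasm and nucleus, while fragments with a stretch of normal length stay soluble. The inducible promoter keeps the fragment low until doxycycline is added, so day 0 shows how the lines differed before induction. Differences at day 0 can be shared by both lines of a construct or belong to 1 line.

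Values are on the scale of the deposited table, read as natural logs, so that a difference of 0.69 is about 2-fold. They were normalized with VSN, which compresses dim probes, and folds of dim probes are therefore too small. In the 24 arrays with a construct, 57.7% of values lay under 5, and such values are called dim here. Array medians at day 5 lay between 4.74 and 4.80, and paired RNA isolations (same line, same day) had r of 0.992 to 0.997 across probes. The PC12 arrays had means of 5.51 to 5.52, against 5.57 to 5.58 for the arrays with a construct. The small number of lines limits the precision. RNA isolations of a line were averaged, so that 2 lines stood against 2. The fits within a day pooled the spread over 6 groups, in which the same 4 lines enter on 3 days as 12 values. These values were treated as independent although a line can keep its level from day to day, so p-values within a day may be too small. The p-values of the gain measure how evenly the lines of a construct changed. No table used here links the probes to genes, so members are given by rank, with identifiers for 4 of them. The defining markers of PC12 cells and of other cell types could not be looked up for the same reason.

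After 5 days, limma called 253 of 22521 probes (1.12%) as different in Q74 from Q23 (adjusted p under 0.05), 108 of them higher in Q74 (0.480%) and 145 lower (0.644%). Whether called or not, the lines of the constructs did not overlap for 8970 probes (39.8%). The median size of the 253 differences was 0.49, or 1.63-fold, and the largest was 3.04, or 20.9-fold. Differences of over 2-fold were found for 75 probes, 29 higher and 46 lower in Q74. At day 0, the same comparison called 26 probes (0.115%), 21 higher (0.0932%) and 5 lower (0.0222%) in Q74. That split did not hold with each RNA isolation as a sample, which gave 87 higher and 99 lower. The gain, the day 5 difference minus the day 0 difference with each line set against itself, passed for 684 probes (3.04%), 344 up (1.53%) and 340 down (1.51%) in Q74. With days 0 and 5 fitted alone, 304 gains passed. The 3 comparisons share lines and arrays, so their lists are not independent. Without Q23 line 1 or without Q23 line 5, 1 probe passed at day 5. Without Q74 line 4, 1400 passed, and without Q74 line 6, 1459. Without the second RNA isolation, 140 passed. With the day 5 groups fitted alone, 5 passed, and with the day 0 groups alone, 2. The larger number of lower calls at day 5 turned to 125 higher against 96 lower without the first RNA isolation, 762 against 638 without Q74 line 4 and 761 against 698 without Q74 line 6. A fit with 1 line left out takes the spread of values from the other construct alone, so these counts need not show that a result rests on that line.

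Counted by line and without a test, Q74 line 4 was over 2-fold away from the Q23 mean for 282 probes at day 5 and Q74 line 6 for 279. At day 0 these counts were 75 and 155. Both Q74 lines were over 2-fold away in the same direction for 107 probes at day 5, 32 higher and 75 lower. This was so for 26 probes at day 0 (19 higher and 7 lower) and for 25 at day 1 (16 higher and 9 lower). At day 5 the Q23 lines were over 2-fold apart from each other for 18 probes, and the Q74 lines for 290. The gap between the Q74 lines was largely there before induction, with 242 probes at day 0 and 231 at day 1. For the Q23 lines these counts were 19 and 17. The shared differences between constructs were thus more numerous after 5 days than after 1. On each day the Q74 lines differed more from each other than the Q23 lines did. At day 5, 31 probes were over 2-fold away in Q74 line 4 and within 0.1 of the Q23 mean in Q74 line 6, and 26 showed the reverse. In 3 probes both Q74 lines were over 2-fold away, in opposite directions.

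Along the direction of each call, the median difference of the 253 probes was 0.17 at day 0 and 0.19 at day 1, and the median gain was 0.29. At day 0, 232 of the 253 already had the sign of day 5, 97 of the 108 higher and 135 of the 145 lower. The day 0 difference was a median of 34.4% of the day 5 difference, with quartiles of 16.7% and 59.5%. By pairs of single lines, this median was 28.9% for Q74 line 4 against Q23 line 1 and 29.5% against Q23 line 5, and for Q74 line 6 it was 42.6% and 44.4%. A larger part of the difference was thus present at day 0 in Q74 line 6 than in line 4, for either Q23 line. These shares are a description, since a probe called at day 5 was chosen on one of the values that enter the share. Refitting without 1 line changed which probes were called, and the median was then 23.4% without Q74 line 6, 69.4% without Q74 line 4, and 93.1% and 97.8% without Q23 line 1 or line 5, where 1 probe was left.

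By the size of the day 0 part, 27 of the 253 probes had between 80% and 120% of their day 5 difference at day 0, 18 higher and 9 lower in Q74. Another 50 had between 0 and 20%, 20 higher and 30 lower, and 151 lay in between, 55 higher and 96 lower. The sign had turned since day 0 for 21 probes, and 4 probes, all higher in Q74, had been over 120% of the day 5 difference. Each probe was also sorted by the tests. The gain alone passed for 121 of the 253 (49 higher and 72 lower), the day 0 difference alone for 22 (17 higher and 5 lower), both for 1, and neither for 109. The 121 with a called gain had a median of 16.7% of their difference at day 0, while the 22 had between 73.9% and 168%. Among the 109 that passed in neither part, both parts pointed the same way for 108, with a median of 51.8% at day 0. The agreement in sign partly follows from the choice. Had the parts been opposed, either the day 0 difference or the gain would have exceeded the called difference. Of the 109, 77 had an unadjusted p under 0.05 at day 0, 74 in the gain and 42 in both. Over all 22521 probes, 1349 had such a p at day 0 and 3387 in the gain. The parts add up to the difference on which the 109 were chosen, so these counts also partly follow from the choice.

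**Figure D1:**
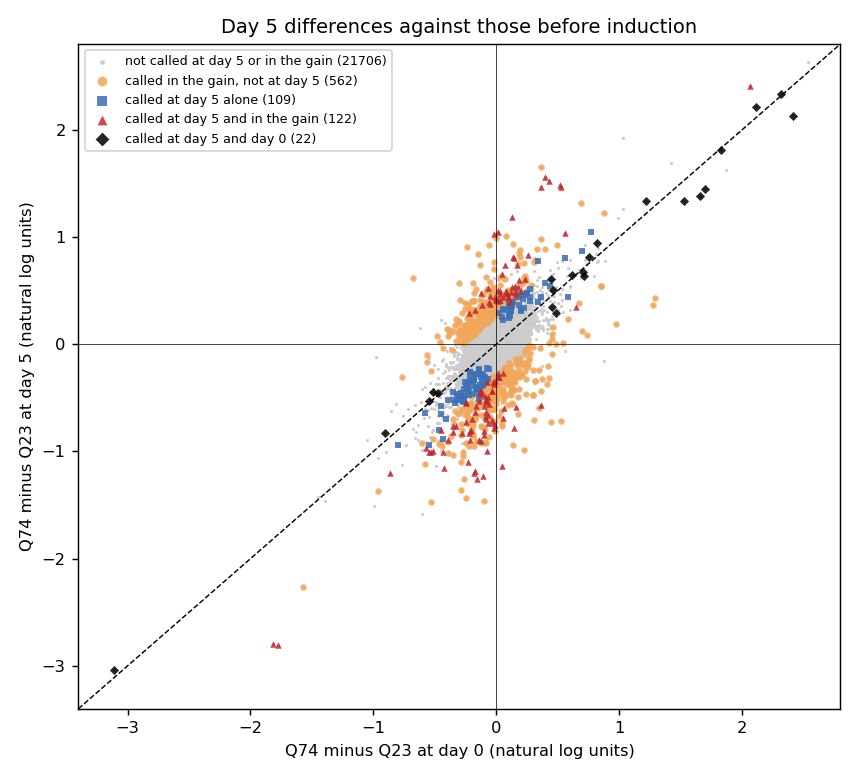
Each point is a probe, with its Q74 minus Q23 difference at day 0 on the x axis and at day 5 on the y axis (natural log units), and the dashed line marks equal differences. Black diamonds are the 22 probes called on both days without a called gain and lie along the line, while the 122 red triangles, called at day 5 and in the gain (1 of them also at day 0), mostly lie farther from 0 on the y axis than on the x axis.

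Of the 10 largest higher differences, 5 were nearly complete before induction. The probe with the largest higher difference, ILMN_1363839, read 7.57 and 7.69 in the isolations of Q74 line 4 and 6.59 and 6.74 in those of Q74 line 6, against 4.67 and 4.71 in Q23 line 1 and 4.71 and 4.89 in Q23 line 5. PC12 cells read 4.54 and 4.56. That the constructs did not overlap at day 5 was a condition of the choice, and both Q23 and PC12 were dim. At day 0, its line means were 7.32 and 6.16 in Q74 lines 4 and 6, against 4.63 and 4.71 in Q23 lines 1 and 5. The day 5 difference was 2.40 (SE 0.46, 11.1-fold, adjusted p = 0.049 from limma), of which 86.0% was present at day 0, where the adjusted p was 0.30. Its gain was 0.34 (SE 0.08, adjusted p = 0.039 from limma). The call at day 5 was lost after quantile normalization and in 4 other settings, and its adjusted p ranged up to 0.68 over all 16 settings. The adjusted p of the gain ranged up to 0.99, and its call was lost in 10 of 15.

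The next 4 higher probes passed at day 0 as well as at day 5 and their gains did not pass. The probe of rank 2 averaged 6.97 and 6.47 in Q74 lines 4 and 6, against 4.40 and 4.37 in Q23 lines 1 and 5, and PC12 cells were at 4.24. Rank 3 had the most even lines, with 6.97 and 6.85 in Q74, against 4.73 and 4.66 in Q23 and 4.70 in PC12. Its difference was 2.21 at day 5 and 2.11 at day 0 (adjusted p = 7.7e-07 from limma at day 5). Ranks 4 and 5 read 6.91 and 6.52, and 6.66 and 6.18, in Q74 lines 4 and 6, against 4.53 and 4.64, and 4.63 and 4.59, in Q23 lines 1 and 5. The gains of ranks 2 to 5 lay between -0.28 and 0.10. In these 5 leading probes Q74 stood far above the dim level at which both Q23 and PC12 lay, on both days.

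The other 5 of the 10 were gained for the most part, with 24.9% to 35.7% of the difference at day 0 and gains of 0.94 to 1.16, all called. Rank 6 read 7.61 and 8.19 in Q74 lines 4 and 6 at day 5, against 6.27 and 6.42 in Q23 lines 1 and 5, and PC12 was at 5.70. At day 0 the Q74 lines had read 6.42 and 7.05, against 6.19 and 6.48 in Q23, so that Q74 line 4 lay between the Q23 lines. Rank 7 was the brightest of the 10, at 9.70 and 9.32 in Q74 lines 4 and 6, against 8.01 and 7.96 in the Q23 lines and 8.59 in PC12. Ranks 8 and 9 were dim in both Q23 lines and in PC12 and reached 6.51 and 6.33, and 6.24 and 5.88, in Q74 lines 4 and 6. Rank 10 read 8.96 and 8.69 in Q74, against 7.29 and 7.44 in Q23 and 6.55 in PC12. From day 0 to day 5, ranks 7 to 10 rose by 1.32 to 1.55 in Q74 line 4 and by 0.58 to 0.83 in Q74 line 6.

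Among the lower probes, the first differed by nearly the same size on both days. ILMN_1350888 read 4.94 and 4.82 in the isolations of Q74 line 4 and 5.33 and 5.17 in those of Q74 line 6, against 8.17 and 8.31 in Q23 line 1 and 7.86 and 8.08 in Q23 line 5. The PC12 arrays read 7.39 and 6.94. Its difference was -3.04 at day 5 and -3.11 at day 0 (SE 0.16 on both days, adjusted p = 0.00014 and 0.00011 from limma). The gain was 0.07 (SE 0.08, adjusted p = 0.74 from limma), and no line changed by more than 0.11. The level in Q74 lay near the dim bound on both days, where a fall is compressed by VSN. The call held in 14 of 16 other settings and was lost without either Q23 line.

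In ranks 2 and 3 the constructs stood apart at day 0 too, but the lines of a construct spread widely. Rank 2 read 5.42 and 4.81 in Q74 lines 4 and 6 at day 5, against 8.32 and 7.52 in Q23 lines 1 and 5, with PC12 at 5.69. Rank 3 read 5.16 and 4.65 in Q74, against 8.13 and 7.27 in Q23, with PC12 at 5.57. Both probes ran in parallel over the lines and days, and the tables do not say whether they target the same transcript. Their differences at day 0 (-1.77 and -1.82) were 63.3% and 65.0% of those at day 5 and did not pass in limma (adjusted p = 0.54 and 0.51). Their gains of -1.03 and -0.98 passed, and these calls were lost in 2 and 4 of 15 other settings, in both under a random line block and in rank 3 also without either Q23 line. Their day 5 calls were lost in 6 and 4 of 16 other settings, in both without either Q23 line and in rank 2 also without the first RNA isolation. PC12 cells lay nearer to Q74 than to Q23 in both.

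Of ranks 4 to 10, 5 were gained almost wholly. Ranks 4, 5, 7 and 8 had 8.55% to 14.9% of their difference at day 0, and rank 10 had turned from a slightly positive difference. Rank 5 read 6.17 and 6.25 in Q74 lines 4 and 6 at day 5, against 7.52 and 7.35 in Q23 lines 1 and 5, with PC12 at 6.79, while at day 0 all 4 lines lay between 7.34 and 7.58. Rank 7 fell by 1.00 and 1.02 in Q74 lines 4 and 6, the most even pair of the set, and read 7.92 and 7.97 there at day 5, against 9.25 and 9.03 in Q23. Rank 10 read 8.41 and 7.77 in Q74, against 9.21 and 9.23 in Q23, and PC12 was above all lines at 10.2. Rank 6 was mostly present at day 0 (72.0%) and rank 9 was mixed (37.0%). Over the 10, the gain passed in 9, which partly follows from choosing them by a difference that enters the gain.

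**Figure D2:**
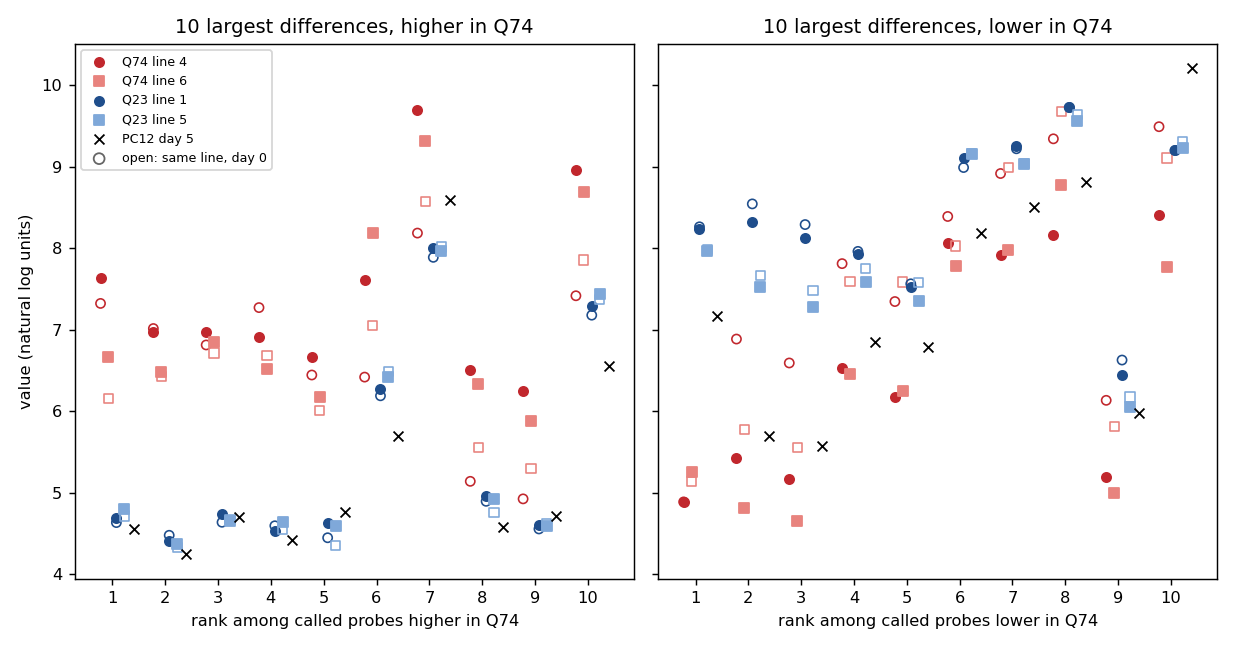
Values of the 10 largest called differences in each direction, by rank on the x axis, in natural log units on the y axis: filled points are line means at day 5, open points the same lines at day 0, red for Q74, blue for Q23, and crosses are PC12 at day 5. For higher ranks 1 to 5 the open and filled Q74 points of a line lie within 0.51 of each other and stand over 1 unit above Q23 and PC12, while for ranks 6 to 10 the filled points lie well above the open ones.

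**Figure D3:**
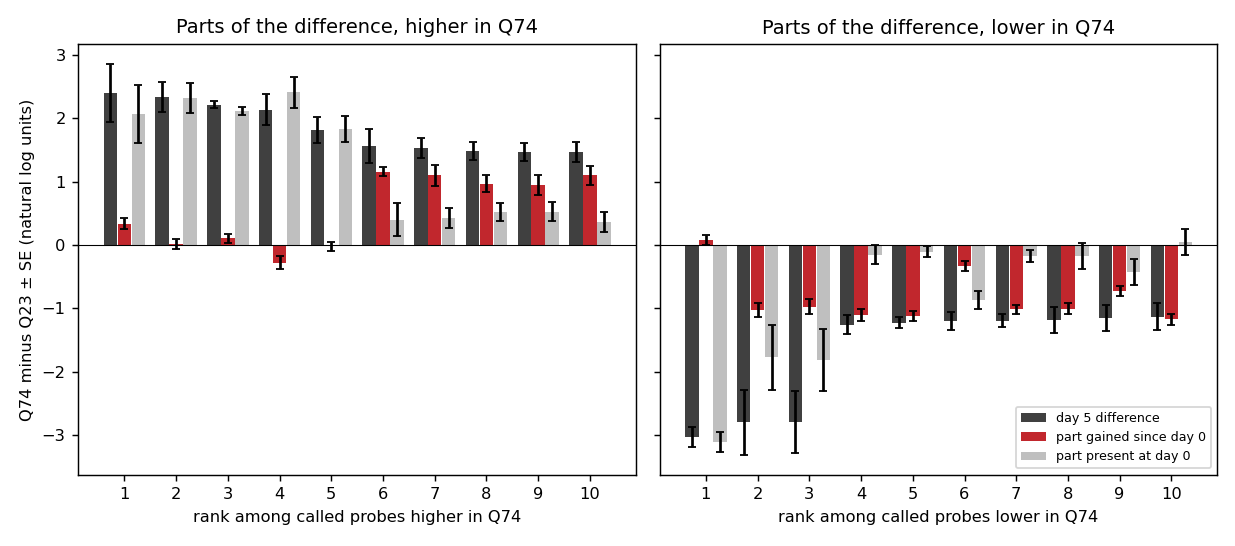
For the same 20 probes, bars give the Q74 minus Q23 difference at day 5 (dark), the part gained since day 0 (red) and the part present at day 0 (grey), in natural log units with standard errors from limma. The grey bar is about as tall as the dark bar for higher ranks 1 to 5 and lower rank 1, and the red bar is most of it for higher ranks 6 to 10.

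The 22 probes called at day 0 and day 5 with no called gain had a median size of 0.82 and came mostly as higher readings. In the 17 higher probes the change of a Q74 line between the days lay between -0.43 and 0.27, and in the 5 lower probes between -0.08 and 0.20. PC12 was nearer to Q23 than to Q74 for 19 of the 22, and it was dim in 13 of the 17 higher probes. The smallest difference of the 22 was 0.29. Of these 22 probes, 12 exceeded 2-fold (10 higher and 2 lower), while of the 121 with a called gain alone, 54 did (15 higher and 39 lower). The 1 probe called in all 3 comparisons was higher in Q74 by 0.35 at day 5, against 0.65 at day 0.

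Some lines moved far more than others. Along the calls at day 5, the median change since day 0 was 0.33 in Q74 line 4 and 0.26 in Q74 line 6, against -0.01 in Q23 line 1 and 0.01 in Q23 line 5, and 0.01 in PC12. The call was made on day 5 values of all 4 construct lines, so movement of Q74 along it partly follows from the choice. Of the 684 probes with a called gain, the Q74 part was larger than the Q23 part in 673. In 553 of them Q74 line 4 moved more than Q74 line 6, over 1.5 times as much in 354, while the reverse over 1.5 times was seen in 46. At day 1 the gain had reached a median of 13.3% of its size at day 5, and it was over 50% in 26 probes. The largest change of PC12 in these 684 probes was 0.25, and over all probes its largest change was 0.49. The smallest gain called was 0.27, but a gain is a difference between mean changes of Q74 and Q23, and its lower end is set by the test.

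The median gain called was 0.41, or 1.51-fold, and 83 gains were over 2-fold, 23 up and 60 down in Q74. By the day 0 difference, whether it passed or not, 268 of the 684 opened from a size of at most 0.1. Another 162 widened a difference of the same sign, 233 crossed from one sign to the other, and 21 narrowed. Of the 684, 4 were called at day 0, against 0.115% of all probes. The day 0 value enters the gain with a minus sign, so choosing on the gain favours day 0 differences of the other sign. Widening was seen for 107 gains down and 55 up, and crossing for 151 up and 82 down. Among widened probes the median difference along the gain was 0.76 at day 5, against 0.22 at day 0. For crossed probes it was 0.22 at day 5, against -0.19 at day 0. Of these 233, 7 were also called at day 5, against 1.12% of all probes. The Q74 mean passed upward through the dim bound of 5 in 33 probes and downward in 19. The split into up and down depended on scaling: quantile normalization gave 272 up against 360 down, and median centring 406 up against 283 down. The count of 684 was 349 without Q74 line 4, 2059 without Q74 line 6, 63 without Q23 line 1, and 50 without Q23 line 5. Leaving out RNA isolation 1 gave 338, and leaving out isolation 2 gave 267.

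The largest gain up left no called difference at day 5. ILMN_1356384 rose by 1.78 in Q74 line 4 and by 1.05 in Q74 line 6, against 0.14 and 0.10 in Q23 lines 1 and 5, and PC12 changed by -0.08. At day 5 it read 7.70 and 7.81 in the isolations of Q74 line 4 and 6.08 and 5.85 in those of Q74 line 6, against 6.26 and 5.81 in Q23 line 1 and 6.62 and 6.31 in Q23 line 5. The constructs overlapped at day 5. At day 0 the line means had been 5.98 and 4.91 in Q74 lines 4 and 6, against 5.89 and 6.37 in Q23 lines 1 and 5. The gain was 1.30 (SE 0.16, 3.65-fold, adjusted p = 0.00017 from limma), while the day 5 difference of 0.61 did not pass (SE 0.58, adjusted p = 0.80 from limma) and was -0.28 without Q74 line 4. The call of the gain was lost in 4 of 15 other settings, among them without Q23 line 5, with adjusted p up to 0.93 in limma. PC12 read 6.56 and 6.95 at day 5. At day 1 the lines read 6.19 and 5.06 in Q74, against 5.94 and 6.31 in Q23.

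The largest gain down was ILMN_1650075, which fell by 2.18 in Q74 line 4 and by 0.81 in Q74 line 6, against falls of 0.10 and 0.16 in Q23 lines 1 and 5. It read 6.44 and 7.06 in the isolations of Q74 line 4 at day 5 and 7.87 and 8.04 in those of Q74 line 6, against 8.93 and 9.33 in Q23 line 1 and 8.46 and 8.53 in Q23 line 5. PC12 read 7.95 and 7.94. The Q74 lines did not overlap the Q23 lines at day 5, while at day 0 both Q74 lines, at 8.93 and 8.77, lay between the Q23 lines at 9.24 and 8.66. The gain was -1.36 (SE 0.28, adjusted p = 0.012 from limma) and the day 5 difference -1.46 (SE 0.39, adjusted p = 0.14 from limma). The call of the gain was lost in 5 of 15 other settings, among them without either Q23 line, with adjusted p up to 0.86 in limma. Its fall at day 1 was already to 8.35 and 8.27 in Q74 lines 4 and 6, against 9.20 and 8.53 in the Q23 lines.

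In the 10 largest gains up, Q74 line 4 rose by 1.20 to 1.78 and Q74 line 6 by 0.64 to 1.65, while no Q23 line changed by more than 0.17 and PC12 by no more than 0.08. Q74 line 4 moved more than line 6 in 9 of the 10, the exception being rank 2 with rises of 1.22 and 1.65. In the 10 largest gains down, Q74 line 4 fell by 1.08 to 2.18 and Q74 line 6 by 0.49 to 1.53. Rank 2 of these was the only one with a fall of over 0.25 in a Q23 line, by 0.50 in line 1 and 0.32 in line 5. These 20 probes were chosen for the size of the gain, so the distance of Q74 from Q23 is a description. Of them, 6 of the up and 3 of the down set were also called at day 5, against 0.480% (higher) and 0.644% (lower) of all probes. The day 5 value enters the gain, so these counts partly follow from the choice. Of the 20, 6 were among the largest differences at day 5, 3 higher and 3 lower.

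**Figure D4:**
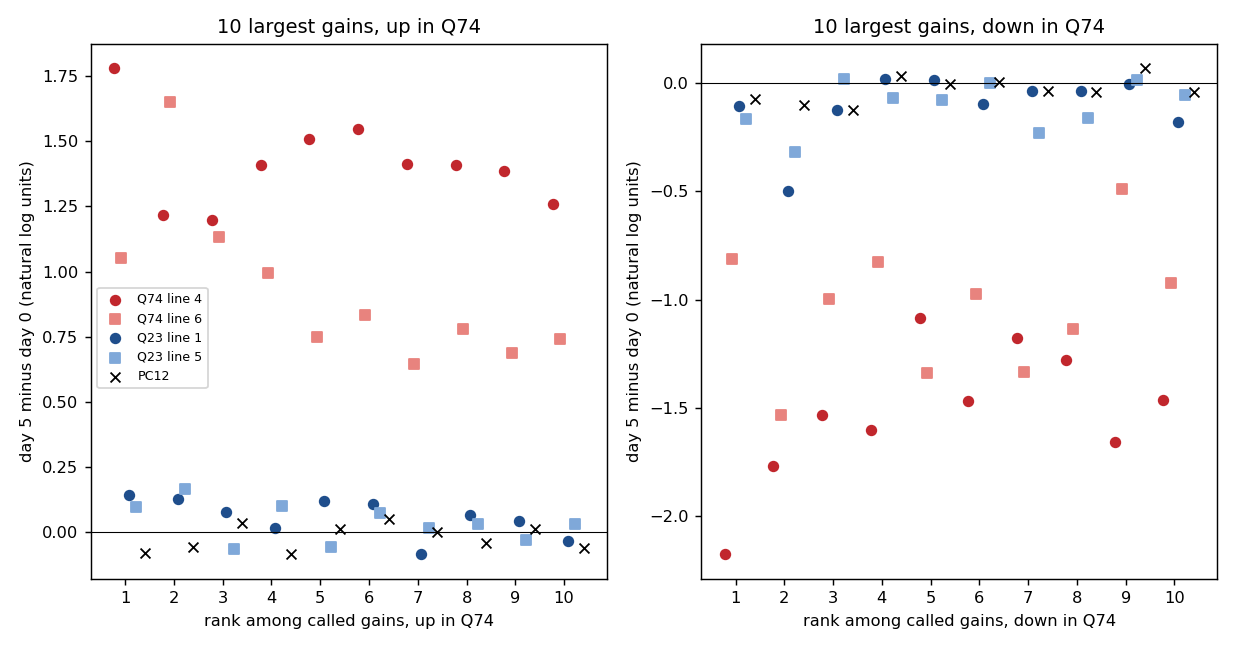
Change from day 0 to day 5 in each line for the 10 largest called gains up (left) and down (right), by rank on the x axis and in natural log units on the y axis, with red for the Q74 lines, blue for the Q23 lines and crosses for PC12. Within each rank the Q74 points stand apart from Q23 and PC12, and Q74 line 4 lies farther from 0 than Q74 line 6 in 9 of 10 gains up and 8 of 10 down.

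At day 0 but not at day 5, 3 probes were called. They were chosen on values that enter the gain, so a gain toward a smaller difference partly follows from the choice. Their differences were 0.19, 0.39 and 0.16 at day 5, against 0.98, 0.68 and 0.46 at day 0, all higher in Q74. The first read 7.48 and 7.10 in Q74 lines 4 and 6 at day 5, against 7.08 and 7.13 in Q23 lines 1 and 5, and at day 0 it had read 7.92 and 8.07 in Q74, against 6.94 and 7.10 in Q23. Both Q74 lines had fallen, by 0.44 and 0.97. Its gain of -0.79 passed (adjusted p = 0.001 from limma), and this call was lost in 4 of 15 other settings. The gains of the other 2 passed at -0.29 and -0.30 (adjusted p = 0.047 and 0.033 from limma), and their calls were lost in 12 and 10 of 15 other settings. PC12 read 4.96, 4.80 and 4.40 at day 5, below every line with a construct.

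PC12 cells lay nearer to the Q23 mean than to the Q74 mean for 165 of the 253 called probes, or 65.2%, against 52.3% of all probes. Of the higher calls, 86 of 108 (79.6%) lay nearer to Q23, and of the lower calls 79 of 145 (54.5%) did. PC12 was on the far side of Q23 from Q74 for 107 of the 253, between both for 103 and on the far side of Q74 for 43. Among the 121 with a called gain alone it was nearer to Q23 in 80. No test was made, since the study's design gives PC12 cells technical replicates only, although the numbers in their sample codes differ. The PC12 arrays have the lower means given above, whose part in these shares was not tested. After quantile normalization of all 30 arrays, chosen after seeing those means, the share was 66.8%. At day 5, Q74 lines 4 and 6 were over 2-fold away from PC12 for 1326 and 1278 probes, and Q23 lines 1 and 5 for 1075 and 1072. At day 0 these were 1097 and 1109 for Q74 lines 4 and 6, against 1086 and 997 for Q23 lines 1 and 5.

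**Figure D5:**
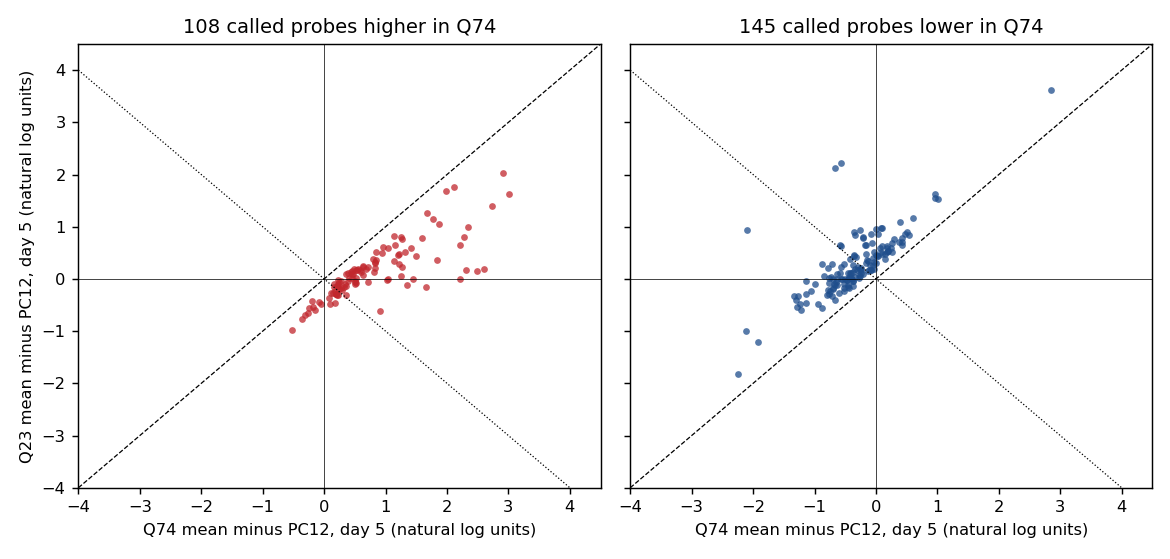
For the 253 called probes, the Q74 mean minus PC12 at day 5 (x axis) against the Q23 mean minus PC12 (y axis), in natural log units, higher calls on the left and lower calls on the right. The dashed line marks equal constructs, and on the dotted line PC12 is as near to Q74 as to Q23; 86 of the 108 higher calls are nearer to Q23.

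Calls came mainly from bright probes. In 4 equal bins of the mean value, dim to bright, the 253 calls at day 5 numbered 0, 4, 101 and 148, and the 684 gains 4, 11, 259 and 410. In 38 of the 253 the construct with the lower mean was dim, 29 of them higher in Q74. Of the 429 probes with a day 5 difference over 0.5, 120 were called. The test divides by the spread between lines, so wider gaps are likely in the 309 that were not called. There the Q74 lines were a median of 0.43 apart, against 0.19 in the 120. The largest difference that was not called, 2.64, was of this kind, with 8.40 in Q74 line 4 and 6.17 in Q74 line 6, against 4.70 and 4.60 in Q23 lines 1 and 5, and 5.71 in PC12 (adjusted p = 0.30 from limma). It had been 2.53 at day 0. Gains over 0.5 were found for 233 probes and 209 of these were called. In the test of the gain, a difference that a line keeps on every day drops out.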

How the data were processed

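RNA of 4 inducible PC12 lines and of PC12 cells was measured on 30 Illumina RatRef-12 arrays. The authors deposited values that are read here as natural log: bead averages per probe from BeadStudio, not background-corrected, then normalized with VSN. The base was inferred from the highest value, 11.1, near the natural log of a 16-bit signal. The paper does not state it, or whether all arrays were normalized together.

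Averaging both RNA isolations left 12 values. In R 4.3.3 with limma 3.58.1, the constructs were compared within each day from 6 group means (6 residual degrees of freedom), although 4 lines stand behind the 3 days. The gain was tested with a fixed effect of each line and construct-specific day effects (4 residual degrees of freedom). The line is the same cell line on each day, which is where the pairing comes from. Tests were two-sided with Benjamini-Hochberg adjustment over 22521 probes. PC12 arrays were taken as technical replicates, entered neither fit, and formed further groups in 1 alternative. Both fits were also run on simulated data, whose noise model was revised after a first run recovered few gains, and its outcome is not given here. Python 3.11.15 and matplotlib 3.10.9 drew the figures.

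Described members are the 10 largest called differences and the 10 largest called gains in each direction. For the differences, both Q74 lines had to lie beyond both Q23 lines at day 5. For the gains, this was required of the changes since day 0. Members, lists and bounds were chosen with earlier results of these data known. The gene lists and cell type markers were left out for want of a table pairing probes with genes here. Of the 684 called gains, all met the rule that both Q74 changes lie beyond both Q23 changes. Batches were not tested, as the labels give neither chip nor date. Alternatives were other uses of the RNA isolations, normalizations, filters, conditions on day 0, blocks and leaving out each line or isolation.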

Additional observations from a re-analysis of the deposited data

Results flagged for a closer look

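The Q74 minus Q23 difference at day 5 differed from that at day 0 in a direct test of the difference (limma, each line as its own block, adjusted p under 0.05) for 684 probes. Of the 10 largest higher differences at day 5, 6 had such a gain, and of the 10 largest lower differences, 9, against 3.04% of all probes. These probes were chosen for the size of the day 5 difference, which enters the gain, so the counts partly follow from the choice. The gain was 0.34 for ILMN_1363839, 1.30 for ILMN_1356384 and -1.36 for ILMN_1650075. In the 3 probes called at day 0 and not at day 5 it was -0.79, -0.29 and -0.30, where a negative gain partly follows from that choice. With 2 lines in each construct, no line could be tested as an outlier.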

How the results depend on the processing

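At day 5, 253 probes passed, against 1282 with each RNA isolation as a sample, 1415 with the isolation number as a block or with the PC12 arrays as further groups, 1189 with isolations as samples and a random line block, 443 with a random line block over line means, 5 when only the day 5 groups were fitted, and 117 with an unadjusted p over 0.05 required at day 0. All 253 were among the 1282. The day 0 count of 26 became 186 with isolations as samples, 237 with their number as a block, 158 with a random line block (105 higher and 132 lower with the number as a block, 75 and 83 with the random block) and 2 with the day 0 groups alone. The paired test of the gain gave 684, 0 in limma with no replicate block for the line (1263 at an unadjusted p below 0.05, against 3387 in the blocked fit), 159 with a random block and 304 from days 0 and 5 alone. The share of PC12 nearer to Q23 was 59.5%, 58.7% and 59.1% with isolations as samples alone, with their number as a block and with a random line block. Without 1 line or isolation, the counts ranged from 1 to 1459 at day 5, 1 to 820 at day 0 and 50 to 2059 for the gain, the share at day 0 from 23.4% to 97.8% and the PC12 share from 61.4% to 100%. The lowest counts at day 5 and day 0 came without a Q23 line. Without a line, its construct's remaining line is taken to vary as the other construct does. For the described probes, over these alternatives, day 5 differences kept their direction and side of the threshold in 406 cases, lost the call in 80 and gained one in 56, and gains did so in 410, 90 and 1. For the 3 narrowed probes, the call held in 19 cases and was lost in 26. No called value turned its direction. Among uncalled ones, the gains of higher ranks 2 and 5 turned to -0.018 after quantile normalization and 0.0018 after median centring, and with a line or isolation left out they ranged from -0.042 to 0.073 and from -0.050 to 0.010. The gain of ILMN_1350888 then ranged from -0.12 to 0.26 and the day 5 difference of ILMN_1356384 from -0.28 to 1.51. The causes were not tested. Quantile normalization gave 209 probes at day 5, median centring 252, and a variance trend with a robust prior 214.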
